A study of Mus musculus with 16 samples.

Results

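The clustered protocadherins are cell-surface proteins of the cadherin superfamily, encoded by 3 tandem arrays, Pcdha, Pcdhb and Pcdhg, that lie one after the other on mouse chromosome 18. In Pcdha and Pcdhg each large variable first exon has its own promoter and encodes the extracellular and transmembrane part of 1 isoform, and it is spliced to a small set of constant exons at the end of the array. Genes of the Pcdhb array are single-exon genes without constant exons. Neurons choose a few promoters per cell from these arrays, and the resulting combinations of isoforms give each cell a surface identity used in dendrite self-avoidance and synapse formation. H3K27Me3 is laid down by Polycomb repressive complex 2 and marks repressed chromatin, H3K27Ac marks active promoters and enhancers, and H3K4Me1 marks enhancers and the flanks of promoters.

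Members were the protein-coding chromosome 18 genes whose symbol begins with Pcdha, Pcdhb or Pcdhg in the mm9 gene annotation, which gave 24 of 22367 protein-coding genes. All 24 lie on the plus strand. The annotation holds 2 genes in Pcdha, 21 in Pcdhb and 1 in Pcdhg. Pcdha11 (ENSMUSG00000007440.7) and Pcdhgc5 (ENSMUSG00000023036.7) each carry 10 annotated starts, because variable exons that RefSeq lists as separate genes are transcripts of a single gene here. RefSeq names 14, 22 and 21 protein-coding genes in the same arrays. Annotated starts less than 1 kb apart were therefore joined into 40 first exons, 10 in Pcdha, 21 in Pcdhb and 9 in Pcdhg, and both units are given. First exons of Pcdha and Pcdhg are numbered here by position along the chromosome, and these numbers are not those of isoforms. In Pcdha, first exon 3 is the start of Pcdha3 and the rest are starts of Pcdha11.

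The study compared chromatin of XX (female) and XY (male) ES lines of the mouse, with 2 lines of each sex for each mark. All were F1 hybrid lines of C57BL/6 and CAST/EiJ, labelled passage 7-10 and grown in serum and LIF on inactivated embryonic fibroblasts. The fibroblasts came from pooled embryos of both sexes and were depleted before harvest. The deposited values are 6 lists of enriched regions, 1 per sex and mark, so the 2 lines of a sex cannot be seen apart and no difference between XX and XY could be tested. All 8 ES cell markers examined, among them Pou5f1, Nanog and Sox2, carried H3K27Ac within 2 kb of a TSS in both lists. Of 8 fibroblast markers 0 carried it in the XX list and 1, Col1a1, in the XY list. The XX lists were longer for each mark. They held 18534 against 15138 regions for H3K27Me3, 39404 against 34800 for H3K4Me1 and 28784 against 26100 for H3K27Ac. Lists of equal length were tried for the counts of members and first exons within 2 kb and for the covered share of each array. Other values, such as starts inside regions, overlaps of marks, neighbours and other gene lists, were not recomputed with them.

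The arrays span 912 kb. Pcdha extends over 257 kb (mm9, chr18:37089939-37347311), Pcdhb over 256 kb (chr18:37424652-37681073) and Pcdhg over 168 kb (chr18:37833989-38001527). First exons had a median length of 2390 bp in Pcdha, 3440 bp in Pcdhb and 2610 bp in Pcdhg. In Pcdha the last annotated first exons stand apart from the others, with 69.9 kb between starts 8 and 9 and 53.8 kb between starts 9 and 10. The map of regions along the arrays places H3K27Me3 over the first exons of each array, and H3K4Me1 and H3K27Ac mainly in Pcdhg and after it.

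**Figure D1:**
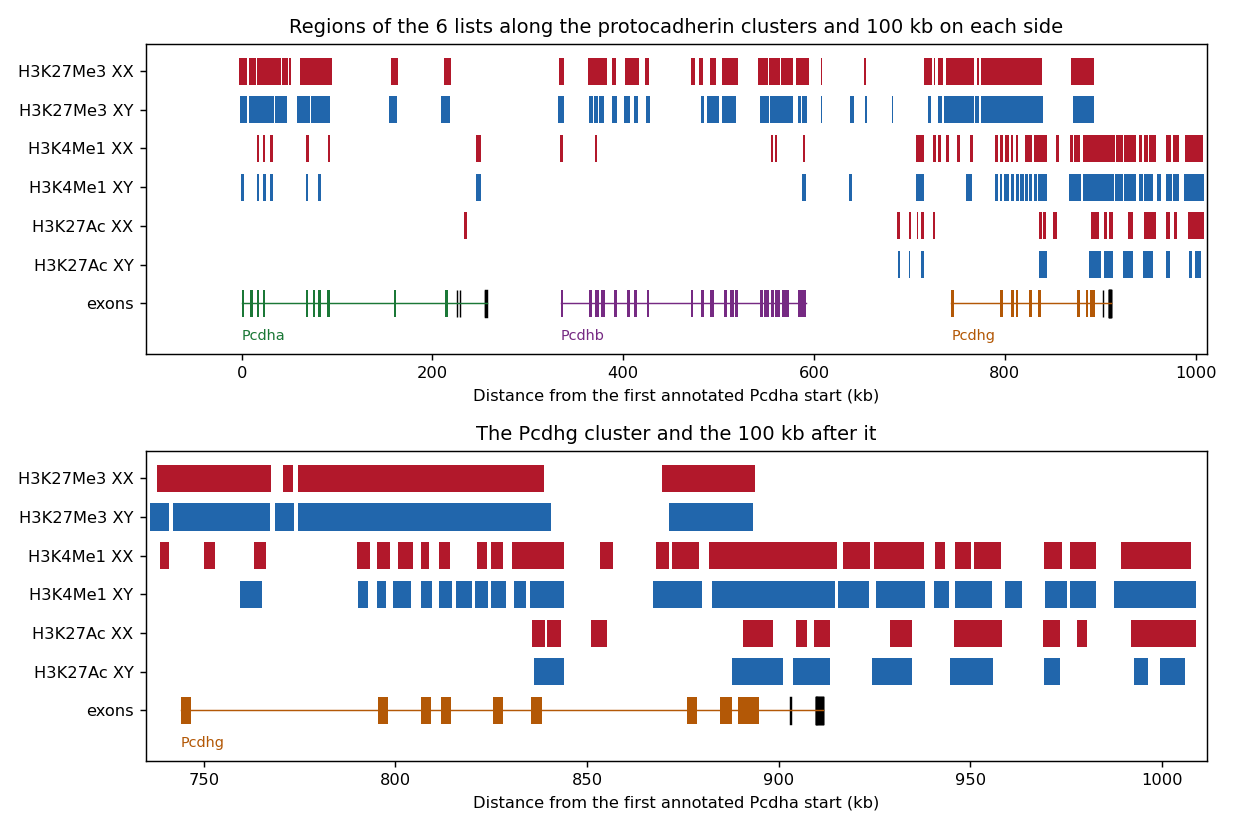
Regions of the 6 lists (rows, XX in red and XY in blue) drawn to scale along the 3 arrays with 100 kb on each side (upper panel) and along Pcdhg with the 100 kb after it (lower panel), with distance in kb from the first annotated Pcdha start on the horizontal axis. In the bottom row colored boxes are first exons and black boxes are later exons, outlined so that the short ones can be seen. H3K27Me3 covers 37.9% of Pcdha, 47.8% of Pcdhb and 68.4% of Pcdhg in the XX list and is absent from the 100 kb after Pcdhg.

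H3K27Me3 lay at almost every member. In the XX list 24 of 24 genes had a region within 2 kb of a TSS and in the XY list 23 of 24, where 32.9% and 28.8% of all protein-coding genes did. On chromosome 18 alone the shares were 41.4% and 37.3%. Counted by first exon, 40 of 40 in the XX list and 39 of 40 in the XY list were within 2 kb of a region. The start itself lay inside a region for 39 and 36 first exons, against 25.9% and 21.7% of genes with a region over a TSS. All starts of Pcdha and Pcdhg were inside H3K27Me3 regions in both lists.

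Pcdhb9 (ENSMUSG00000051242.1) was the single member with H3K27Me3 in 1 list only. Its XX region (chr18:37560601-37564799, 4.20 kb) began 92 bp after the annotated start and covered 97% of the exon. The nearest XY region lay 11092 bp away, within a stretch of 53.6 kb without H3K27Me3 in that list. Among all protein-coding genes 7.33% had H3K27Me3 near a TSS in the XX list only and 3.17% in the XY list only. The other 3 starts outside XY regions missed them by short distances, 107 bp at Pcdhb2, 273 bp at Pcdhb10 and 1 bp at Pcdhb15, and over 90% of each of these exons was covered in that list.

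**Figure D2:**
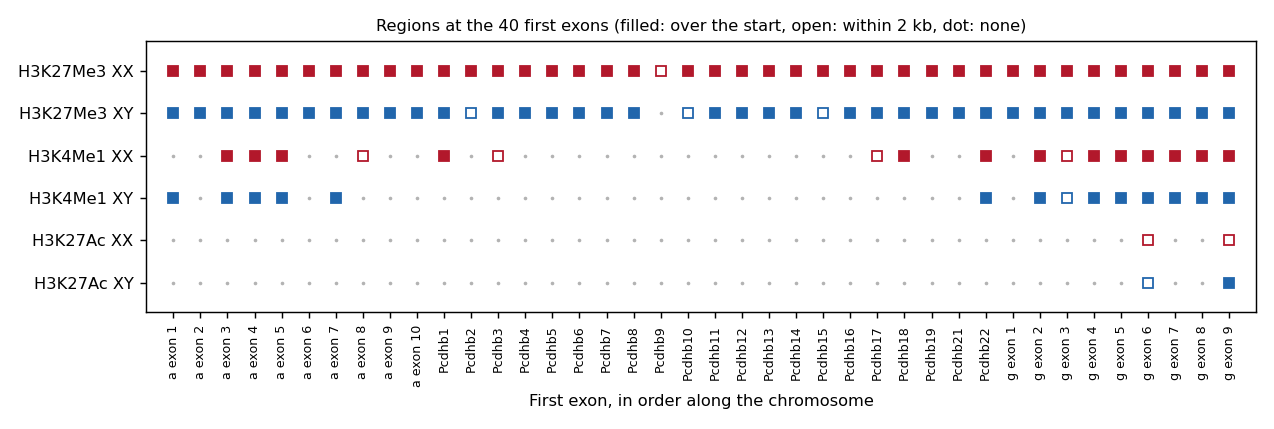
The 40 first exons in chromosomal order (horizontal axis; Pcdhb by gene name, Pcdha as a exon 1 to 10 and Pcdhg as g exon 1 to 9) against the 6 lists (vertical axis). Filled squares mark a region over the start, open squares a region within 2 kb, and dots no region. Squares for H3K27Me3 are missing only at Pcdhb9 in the XY list and are open at Pcdhb9 in the XX list and at Pcdhb2, Pcdhb10 and Pcdhb15 in the XY list, whereas H3K4Me1 has 17 and 14 first exons and H3K27Ac 2 in each list.

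The 3 arrays differed in how H3K27Me3 was laid out. In Pcdha it covered 37.9% of the span in the XX list and 37.6% in the XY list, in Pcdhb 47.8% and 42.3%, and in Pcdhg 68.4% and 69.0%. Regions of the lists covered 4.44% and 3.58% of the autosomes, and 3.91% and 3.31% of chromosome 18. Coverage fell to 2.34% and 1.34% in the 100 kb before Pcdha and to 0% after Pcdhg in both lists. Between Pcdha and Pcdhb it was 2.65% and 3.69%, and between Pcdhb and Pcdhg 17.5% and 16.2%.

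**Figure D3:**
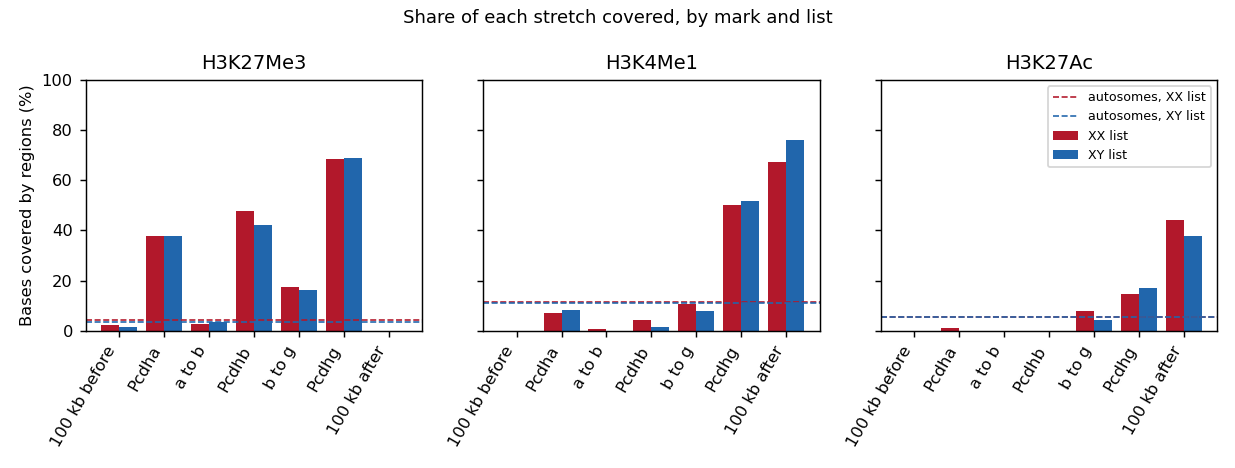
Percent of bases covered by regions (vertical axis) in each array, the stretches between them and the 100 kb on each side (horizontal axis), for each mark, with XX bars in red, XY bars in blue and the autosome share as dashed lines. The H3K27Me3 bars of the arrays stand between 37.6% and 69.0%, and the H3K4Me1 bars of Pcdha and Pcdhb lie below the autosome lines of 11.4% and 11.1%.

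In Pcdhb the mark followed the exons. First exons make up 29.9% of the Pcdhb span but held 61.2% of its H3K27Me3 bases in the XX list and 62.8% in the XY list. They were covered over 97.9% and 88.9% of their length, while the other bases of the array were covered over 26.5% and 22.4%. Pcdhb regions had a median width of 8.50 kb (14 regions) in the XX list and 5.20 kb (18 regions) in the XY list, next to 4.20 and 4.40 kb for the whole lists. Several XX regions spanned neighbouring genes that had separate regions in the XY list. Pcdhb3 and Pcdhb4 shared an XX region of 13.8 kb and had XY regions of 4.40 and 5.20 kb. Pcdhb6 and Pcdhb7 likewise shared 13.8 kb in the XX list and had 5.60 and 4.40 kb in the XY list. The reverse held at Pcdhb17, Pcdhb18 and Pcdhb19, whose starts lay in 1 XY region of 18.8 kb and in 2 XX regions of 12.2 and 12.4 kb. Pcdhb14 was covered over 95.7% of its exon in the XX list and 31.7% in the XY list. Pcdhb1, the first gene of the array, stood alone in a region of 5.20 kb in the XX list and 6.00 kb in the XY list. Pcdhb22, the last, lay in regions of 13 and 6.00 kb.

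In Pcdha first exons make up 9.42% of the span and held 24.9% and 25.1% of its H3K27Me3 bases. They were covered over 100% of their length in both lists, and the other bases over 31.4% and 31.1%. RefSeq names 14 genes there, and the annotation holds 10 first exons. Regions ran on between these annotated exons. The widest, of 34.4 kb in the XX list (chr18:37150801-37185199), held the starts of first exons 5 to 8 and ranked 121 of 18534 by width. The same starts fell in 2 XY regions of 13.8 and 19.8 kb. First exons 9 and 10 each had a region of their own, of 8.20 and 7.40 kb in the XX list and 8.80 and 9.40 kb in the XY list, with 61.0 and 61.4 kb free of H3K27Me3 between first exons 8 and 9. After first exon 10 the mark stopped: a stretch of 113 kb in the XX list and 114 kb in the XY list without H3K27Me3 ran over the Pcdha constant exons to Pcdhb1. The annotated Pcdha constant exons carried none of the 3 marks in either list.

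In Pcdhg the mark formed wide domains. RefSeq names 21 genes there and the annotation holds 9 first exons. Bases between annotated exons may thus hold variable exons that it lacks, and the layout was not compared on a full set. A region of 64.2 kb in the XX list (chr18:37864601-37928799) and 65.8 kb in the XY list (chr18:37864601-37930399) held first exons 2 to 6. These regions ranked 19 of 18534 and 10 of 15138 by width in their lists, and they began at the same position. First exon 1 lay in a region of 29.8 kb in the XX list and 25.4 kb in the XY list. First exons 7, 8 and 9 shared a region of 24.2 kb (XX) and 21.8 kb (XY), which ended inside first exon 9. H3K27Me3 was absent from the Pcdhg constant exons in both lists. Of the bases covered in either list, 94.4% were covered in both in Pcdhg, 82.3% in Pcdha and 70.9% in Pcdhb, and 49.4% over the autosomes. Among H3K27Me3 regions touching an array, 2 of 26 in the XX list had no counterpart in the XY list, the one at Pcdhb9 and one of 2.20 kb between Pcdha first exons 4 and 5 (chr18:37139601-37141799). In the XY list this was 0 of 30. The XX list is the longer, and the share of all its regions without a counterpart was not counted.

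**Figure D4:**
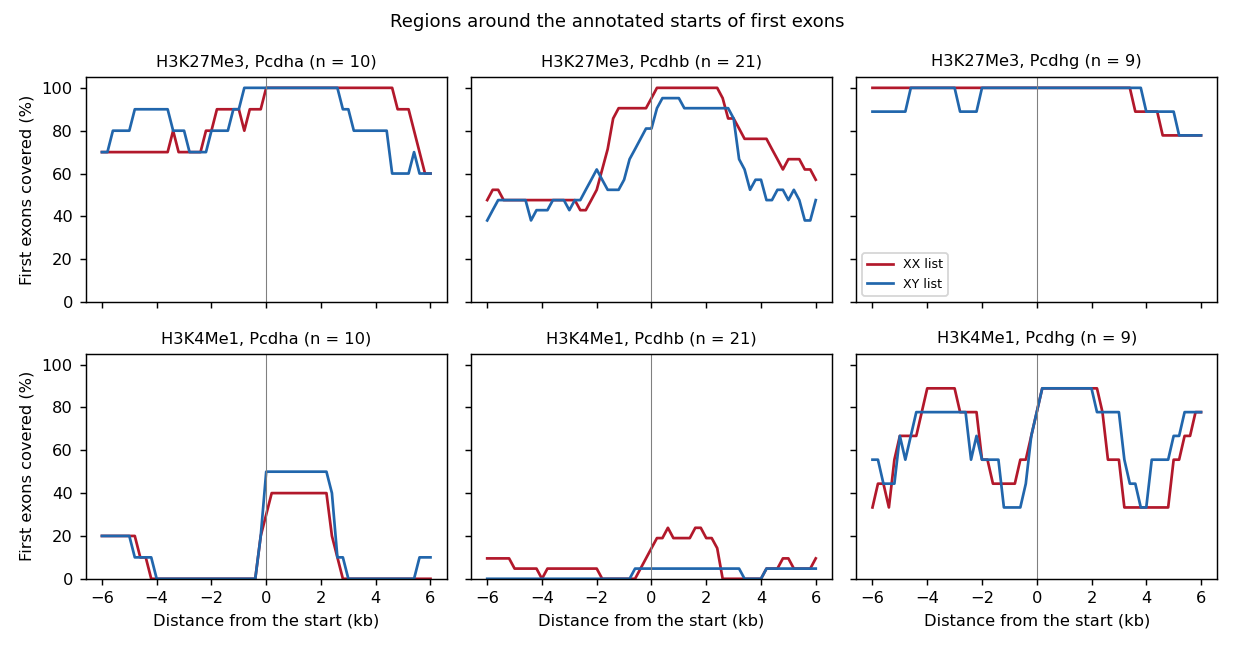
Percent of first exons covered by a region (vertical axis) at each distance in kb from the annotated start (horizontal axis, 200-bp steps), for H3K27Me3 (upper row) and H3K4Me1 (lower row) in Pcdha (n = 10), Pcdhb (n = 21) and Pcdhg (n = 9), with the XX list in red and the XY list in blue. H3K27Me3 peaks over the exon in Pcdhb, while in Pcdhg 77.8% or more of first exons are covered at each distance drawn. RefSeq names 21 Pcdhg genes, and exons missing from the annotation may lie within these distances. H3K4Me1 in Pcdha covers 0 of 10 at 1 kb before the start and 4 (XX) and 5 (XY) of 10 at 1 kb after it.

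H3K4Me1 separated the arrays. It lay within 2 kb of a TSS of 8 of 24 genes in the XX list and 4 of 24 in the XY list (33.3% and 16.7%), where 60.6% and 59.4% of all protein-coding genes carried it. By first exon the counts were 17 and 14 of 40. Pcdhg had it at 8 of 9 first exons in both lists, and its first exon 1 was the one without. Pcdha had it at 4 of 10 in the XX list and 5 of 10 in the XY list, and Pcdhb at 5 and 1 of 21. Coverage of the span followed the same order, with 50.2% and 51.8% in Pcdhg, 7.15% and 8.34% in Pcdha and 4.19% and 1.43% in Pcdhb, against 11.4% and 11.1% of the autosomes.

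Most H3K4Me1 regions of Pcdha lay on first exons, 4 of 6 in the XX list and 5 of 7 in the XY list, and these were close to the exons in extent. At the 4 first exons that had one in the XX list, the region began a median of 166 bp before the exon start and ended 58.5 bp after the exon end. At the 5 in the XY list these medians were 138 and 73.0 bp. All 11 annotated Pcdha starts equal the first coding base, so distances are from that base and not from a mapped transcription start. The median width was 2.60 kb in both lists. First exons 3, 4 and 5 were covered over 98.7% to 100% in both lists, while 6.65% to 10.9% of the 2 kb before them was covered. Among the Pcdha first exons, 3 had the mark in both lists, first exon 8 in the XX list only and first exons 1 and 7 in the XY list only. The first exon 8 region (chr18:37180001-37182399) began 117 bp after the start and was 2.40 kb wide. First exon 1 had a region of 2.60 kb (chr18:37089801-37092399) and first exon 7 one of 2.40 kb (chr18:37170401-37172799). Both lists held 2 further regions off the first exons. One, of 2.60 kb (XX) and 2.80 kb (XY), lay 7381 bp from the nearest annotated start. The other was the widest H3K4Me1 region of the array, at 5.40 kb in the XX list (chr18:37335601-37340999) and 5.20 kb in the XY list (chr18:37335201-37340399), and lay at the start of the lincRNA gene Gm10544, before the last constant exon. Neither of the last Pcdha first exons, 9 and 10, had H3K4Me1 within 2 kb in either list.

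In Pcdhb the H3K4Me1 difference between the lists rested on narrow regions. Pcdhb22 had a region in both lists, of 2.40 kb in the XX list and 4.0 kb in the XY list. Pcdhb1, Pcdhb3, Pcdhb17 and Pcdhb18 had H3K4Me1 in the XX list only, in regions of 0.999 to 2.40 kb, and 0 genes in the XY list only. Over all protein-coding genes 5.23% had H3K4Me1 near a TSS in the XX list only and 4.0% in the XY list only. Cutting the XX list to its 34800 widest regions, as many as the XY list holds, placed the limit among 1180 regions of 2.40 kb, the width of those at Pcdhb1, Pcdhb3 and Pcdhb22. With all regions of that width kept, 3 of 21 Pcdhb genes had H3K4Me1 in the XX list, and with all left out 0. The counts of first exons with H3K4Me1 in 1 list only, 5 (XX) and 2 (XY) with the whole lists, were then 3 and 3 with these regions kept and 0 and 4 with them left out. Over all first exons the excess of the XX list was thus not seen in lists of like length. In Pcdhb it depended on the regions of 2.40 kb, with 3 genes (kept) or 0 (left out) in the XX list and 1 in the XY list. The same cuts left H3K4Me1 at 4 or 3 Pcdha first exons and at 7 Pcdhg first exons in the XX list. The longest stretch without H3K4Me1 in the arrays was 182 kb in the XX list and 337 kb in the XY list, both inside or across Pcdhb.

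At Pcdhg, H3K4Me1 dipped ahead of the exons: 88.9% of first exons were covered at 1 kb after the start in both lists and 44.4% (XX) and 33.3% (XY) at 1 kb before it. First exons 2 to 5 had separate regions of 2.20 to 3.20 kb in the XX list and 2.20 to 3.80 kb in the XY list. From first exon 6 onward the regions widened, with 13.4 kb (XX) and 8.80 kb (XY) at first exon 6 and 7.20 and 12.8 kb at first exon 7. The last region, of 33.2 kb in the XX list (chr18:37971801-38004999) and 32.2 kb in the XY list (chr18:37972401-38004599), ran over first exons 8 and 9, the constant exons and the 3′ end of Diap1, which encodes an actin-nucleating formin and is transcribed toward the array. Away from first exons, Pcdhg held 7 XX and 6 XY regions of H3K4Me1. RefSeq lists more Pcdhg genes than the annotation used here, and whether these regions lie on exons missing from it was not tested.

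H3K4Me1 and H3K27Me3 were found on the same bases in the arrays. In Pcdhb 100% of H3K4Me1 bases also carried H3K27Me3 in both lists, in Pcdha 69.6% (XX) and 75.8% (XY), and in Pcdhg 66.8% and 69.9%, against 16.9% and 14% over the autosomes. The Pcdhg shares were close to the H3K27Me3 coverage of its whole span, 68.4% and 69.0%. The Pcdhb shares rest on 6 H3K4Me1 regions (10.7 kb) in the XX list and 1 (3.67 kb) in the XY list. Almost all of these bases lay in first exons, which H3K27Me3 covered over 97.9% and 88.9% of their length. In Pcdha first exons held 51.8% and 55.7% of H3K4Me1 bases and were covered by H3K27Me3 over 100%. Overlap beyond that given by placement on first exons was not tested. Of H3K27Me3 bases, 8.76% (XX) and 3.39% (XY) carried H3K4Me1 in Pcdhb, 13.1% and 16.8% in Pcdha and 49.0% and 52.4% in Pcdhg. Over the autosomes these shares were 43.5% and 43.4%. No first exon had H3K4Me1 within 2 kb without H3K27Me3, in either list. H3K27Me3 lay at 40 of 40 first exons (XX) and 39 of 40 (XY), so only Pcdhb9 in the XY list could have differed. H3K27Me3 with neither of the other marks was found at 23 of 40 first exons in the XX list and 25 of 40 in the XY list (57.5% and 62.5%). Of all protein-coding genes, most of them without H3K27Me3, 6.15% and 5.89% had this state. Of those with H3K27Me3 near a TSS it was 1375 of 7367 (XX) and 1318 of 6436 (XY). The units differ, since a gene counts as marked at any of its TSSs. This state held for 16 and 19 of 21 Pcdhb first exons, 6 and 5 of 10 in Pcdha, and 1 of 9 in Pcdhg in both lists. Among all genes with H3K27Me3 near a TSS, 78.6% (XX) and 76.7% (XY) also had H3K4Me1 and 45.7% and 44.2% also had H3K27Ac.

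H3K27Ac was nearly absent from Pcdha and Pcdhb and was found at the 3′ part of Pcdhg. Pcdhgc5 was the single gene of 24 with H3K27Ac within 2 kb of a TSS in each list (4.17%), where 50.6% and 50.5% of all protein-coding genes carried it. At the gene level 0 members had it in 1 list only, against 2.78% (XX only) and 2.75% (XY only) of all genes. By first exon it lay at 2 of 40 in both lists, Pcdhg first exons 6 and 9. At first exon 6 the XX region (chr18:37925601-37928999) began 367 bp after the start and the XY region (chr18:37926201-37933799) 967 bp after it. At first exon 9 the XX region (chr18:37980601-37988399, 7.80 kb) began after the start and the XY region (chr18:37977801-37990999, 13.2 kb) covered it. No region came nearer than 98.1 kb (XX) or 99.8 kb (XY) to a Pcdhb start, and none nearer than 19.8 kb (XX) or 135 kb (XY) to a Pcdha start. H3K27Ac covered 14.6% and 17.1% of Pcdhg, 1.24% and 0% of Pcdha and 0% of Pcdhb in both lists, beside 5.68% and 5.36% of the autosomes.

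At Pcdhg first exons 6 and 9 the list of H3K27Ac regions overlapped that of H3K27Me3. Both marks lay on 3.20 kb at each of these exons in the XX list and on 4.20 and 5.40 kb in the XY list. Over Pcdhg as a whole 26.1% (XX) and 33.4% (XY) of H3K27Ac bases also carried H3K27Me3, against 7.89% and 6.83% over the autosomes. H3K27Me3 itself covered 68.4% and 69.0% of Pcdhg, and 4.44% and 3.58% of the autosomes. Of the H3K27Me3 bases of Pcdhg, 5.58% and 8.30% carried H3K27Ac, against 10.1% and 10.2% over the autosomes. Each list stands for the lines of a sex and for many cells, so marks on the same bases and marks in different cells, alleles or lines cannot be told apart. The last Pcdhg constant exon had H3K27Ac and H3K4Me1 and no H3K27Me3 in both lists. Among H3K27Ac regions in the arrays, 2 of 7 in the XX list had no counterpart, one of 3.20 kb between the last Pcdha first exon and the last constant exon (chr18:37323401-37326599), within the lincRNA gene Gm10544, and one of 4.20 kb between Pcdhg first exons 6 and 7 (chr18:37941001-37945199). In the XY list this was 0 of 3. The XX list is the longer, and the share of all its regions without a counterpart was not counted.

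Neighbouring genes carried other combinations. Gm6756, the protein-coding gene in the 100 kb before Pcdha, had none of the marks near its TSS. Between Pcdhb and Pcdhg, Taf7, a subunit of the general transcription factor TFIID, had H3K27Ac and H3K4Me1 in both lists and H3K27Me3 in the XX list only. Slc25a2, a mitochondrial ornithine carrier, had H3K4Me1 in both lists and H3K27Ac in the XX list only, and 3222401L13Rik had all 3 marks in the XX list only. Gm10545, whose start lies inside Pcdha on the opposite strand, had H3K27Me3 in both lists and H3K4Me1 in the XX list only. After Pcdhg, Diap1 had H3K27Ac and H3K4Me1 in both lists without H3K27Me3. Hdac3, a histone deacetylase beyond Diap1, had H3K27Me3 and H3K4Me1 within 2 kb of a TSS in both lists and H3K27Ac in the XY list only, and its H3K27Me3 lay more than 100 kb from the arrays. The 100 kb after the arrays were covered over 44.1% and 37.7% by H3K27Ac and 67.3% and 76.1% by H3K4Me1. The pseudogene Pcdhb20, which is not a member, had H3K27Me3 in both lists.

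Other gene lists give the scale. Of 12 non-clustered protocadherins, which lie outside the arrays, 12 had H3K27Me3 in the XX list and 8 in the XY list. Pcdh12, Pcdh18, Pcdh19 and Pcdh20 had it in the XX list only, as did 7.33% of all protein-coding genes. The XX list is the longer, and lists of equal length were not tried for these genes. Pcdh19 lies on chromosome X. Pcdh1 (chr18:38345569-38371707) and Pcdh12 (chr18:38426746-38444055) lie after Pcdhg on the same chromosome. The 12 genes had H3K4Me1 at 8 (XX) and 7 (XY) and H3K27Ac at 0 and 1, which was Pcdh1. All 39 Hox genes, another set of tandem arrays, had H3K27Me3 in both lists, with H3K4Me1 at 34 and 37 and H3K27Ac at 3 and 1. The 4 Hox spans were covered by H3K27Me3 over 84.4% to 100% with widest regions of 113 to 145 kb, so the protocadherin arrays were covered less and in narrower regions. The 9 Ugt1a genes also join variable first exons to shared exons, and had H3K27Me3 at 1 (XX) and 2 (XY) genes, H3K4Me1 at 0 in both and H3K27Ac at 2 and 1.

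**Figure D5:**
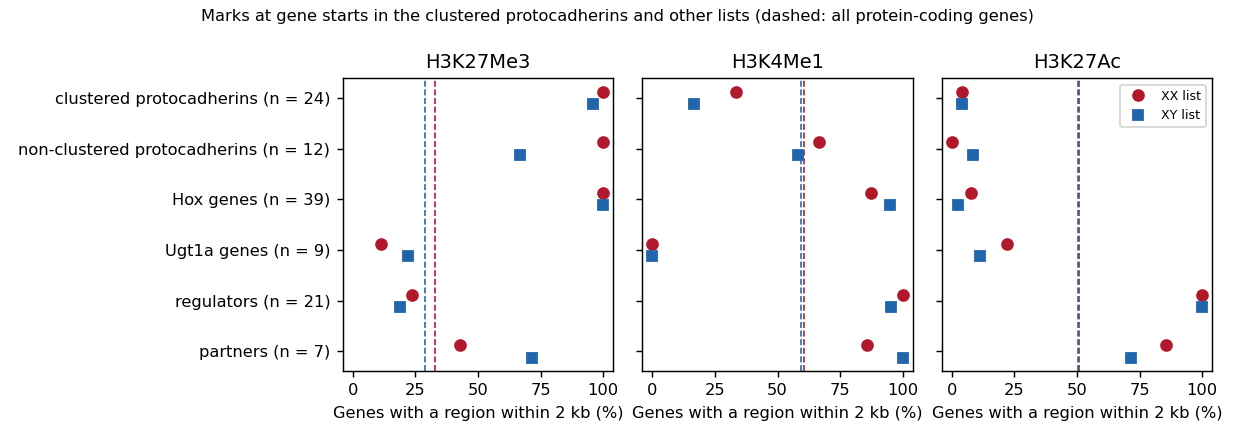
Percent of genes with a region within 2 kb of a TSS (horizontal axis) in the clustered protocadherins and 5 other gene lists (vertical axis, with the number of genes), by mark, with XX as red circles, XY as blue squares and the share of all protein-coding genes as dashed lines. The clustered protocadherins sit at 100% and 95.8% for H3K27Me3, 33.3% and 16.7% for H3K4Me1 and 4.17% for H3K27Ac, and the regulators at 100% for H3K27Ac.

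Genes known to regulate the arrays carried H3K27Ac. All 21, among them Ctcf, the insulator protein that binds the promoters of many variable exons, and the cohesin subunits Rad21, Smc1a and Smc3, had H3K27Ac within 2 kb of a TSS in both lists. H3K27Me3 was found at 5 of them in the XX list and 4 in the XY list. Smchd1, which represses the arrays, and the DNA methyltransferases Dnmt3a and Dnmt3b, which methylate DNA in early embryos, were among the regulators with both H3K27Ac and H3K27Me3 in both lists. Of 7 genes for signalling partners of the proteins, such as the kinases Fyn and Ptk2, H3K27Ac lay at 6 (XX) and 5 (XY) and H3K27Me3 at 3 and 5. Among 7 neuron markers matched, H3K27Me3 was found at 5 in both lists and H3K27Ac at 3 and 2.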

How the data were processed

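ChIP-seq for H3K27Ac, H3K27Me3 and H3K4Me1 was made on 2 XX and 2 XY ES cell lines, with IgG and input libraries, 16 samples in all. The authors aligned 50-bp reads to mm9 (the methods name Bowtie2 and Bedtools, the submitters' processing notes Bowtie and deepTools) and deposited 6 lists of enriched regions, 1 per sex and mark, as positions in base pairs on a 200-bp grid. The lists give no score, count or signal. No source used here names the region caller, its threshold, its use of IgG and input or the way lines were combined. Read depth is unknown, and so is the precision with which a region is present or absent.

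Gene models were GENCODE M1 on NCBIM37, the assembly of mm9. A mark was assigned to a gene or first exon where a region lay within 2 kb of an annotated TSS (minimum overlap 1 bp), and covered bases were counted per span. Regions were shared where they overlapped by 1 bp. Code was tested on simulated regions and checked with bedtools 2.31.1 (48 of 48 values equal), with python 3.11.15 and numpy 2.4.6. Each list is 1 sample without replicates, so there are no tests, SDs or p-values, and neighbouring members share regions. The members and lists were chosen with earlier results of these data known, and first exons were taken as a unit after the annotation was seen. Named singly were the first and last member of each array, members with H3K27Ac, members with a mark in 1 list only, the neighbours and up to 4 genes of each other list. Other genes in the text were named after their values were seen. Alternatives changed the distance, the use of gene bodies, the narrow regions and the list lengths.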

Additional observations from a re-analysis of the deposited data

How the results depend on the processing

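Of 426 alternative values, 392 stayed within 1.5 times the main count or, for a covered percent, within its 95% binomial interval, and this held for every H3K27Me3 value tried. The interval took each 200-bp step of a span as separate, although neighbouring steps share regions. It served as a cutoff only and measures no spread between lines. The 392 include values that were 0 in every setting, such as those of H3K27Ac in Pcdhb. No paired analysis was possible because there is 1 list per sex and mark, and for the same reason no line could be left out. With the lists of a mark cut to equal numbers of regions, the cut fell among regions of equal width, which were taken in order of position, and, as alternatives chosen after seeing the data, all kept or all left out. Taken in order or left out, H3K4Me1 in the XX list was found at 0 Pcdhb genes, 0 Pcdhb first exons and 0% of the Pcdhb span, and in the XX list only at 0 genes and 0 first exons, with 1 gene and 4 first exons in the XY list only. With all kept, these were 3 Pcdhb genes, 3 Pcdhb first exons and 2.63% of the Pcdhb span, and 2 genes and 3 first exons in the XX list only. Taking only the 5′ end of each gene gave 0 Pcdhg genes with H3K27Ac and 0 with H3K4Me1 in each list, 1 Pcdha gene with H3K4Me1 in the XX list and 1 gene with it in the XY list only, because the other starts of Pcdha11 and Pcdhgc5 were left out. Counting gene bodies gave H3K27Ac at 1 Pcdha gene in the XX list and at 1 gene in the XX list only, and H3K4Me1 at 2 Pcdhb genes in the XY list and at 1 gene in the XY list only. At 1 kb H3K27Ac lay at 1 Pcdhg first exon in the XX list and at 1 first exon in the XY list only. At 5 kb it lay at 1 first exon in the XY list only, and H3K4Me1 in the XY list lay at 2 Pcdhb genes and 2 Pcdhb first exons. The depth behind a region is unknown, so a member without a region is one where none was listed, and the mark may lie below the threshold used. The annotation holds fewer first exons than RefSeq, so marks at exons missing from it are counted in spans but not at first exons.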

Other observations

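The base composition of the first exons was described apart from the marks. In the window from 250 bases before to 50 after a TSS, the median GC content was 44.3% in Pcdha, 40.0% in Pcdhb and 46.7% in Pcdhg, below the 55.0% of all protein-coding genes and the 60.3% of those with H3K27Me3 in the XX list. The ratio of observed CpG to that given by base composition had medians of 0.689, 0.426 and 0.434, with 0.534 for all genes and 0.643 for those with H3K27Me3. Over whole first exons the median CpG ratio was 0.657 in Pcdha, 0.390 in Pcdhb and 0.533 in Pcdhg, higher in each array than in the 2 kb before them, at 0.322, 0.244 and 0.236. Starts in Pcdha equal the first coding base in 11 of 11 annotated cases, so the window there lies nearer to the coding sequence than in Pcdhb and Pcdhg, where the median distance was 157 and 164 bp. The core of the CTCF motif, CC followed by any 3 bases, AG, any 2 bases and GGC, searched on both strands, was in 4 of 40 windows (10.0%), beside 9.61% of all protein-coding genes.

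The paralogous exons share sequence. Of 50-base windows, the length of the reads, 85.9% in the 912 kb occurred once in the genome, against 89.7% of windows sampled over the autosomes. The share was 88.6% in the first exons of Pcdha, 95.2% in those of Pcdhb and 98.0% in those of Pcdhg. Inside H3K27Me3 regions it was 95.5% (XX) and 96.0% (XY), and outside them 79.5% and 79.6%. Pcdha first exons 9 and 10 were at 100% and first exons 1 to 8 between 80.8% and 89.8%. The part of these shares in the position of the regions was not tested.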
